A study of Mus musculus with 46 samples.

Results

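The 10 genes described here belong to the second tier of the hepatic acute-phase response and were measured in the liver of sunscreen-treated and untreated mice. They are Itih3, Itih4, Serpina3n, Serpina3m, Apcs, Fgl1, Lbp, Cd14, Il1rn and Steap4, taken by exact match of gene symbol to the array annotation, with the probe set of highest mean for each gene. An array probe set is a group of probes that reports 1 transcript. Of the 10 genes, 9 had a probe set, and each of these 9 had 1, among 35512 probe sets and 19938 genes with a symbol of their own. No probe set carried the symbol Serpina3m, which was not analysed here.

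RNA was measured in liver from 46 SKH:QS mice on Affymetrix whole-transcript arrays, 1 array and 1 animal per sample. Sunscreen was put on the skin of the back 6 times in 4 days, liver was taken on day 5, and the study asked how each sunscreen changed liver transcription relative to no treatment. Of the virgin mice, 6 had the formulation without metal oxide particles, 6 the same kind of sunscreen with 68ZnO microparticles (micro ZnO), 6 one with 68ZnO nanoparticles (nano ZnO) and 6 no treatment. Of the pregnant mice, at about day 17 of gestation, 6 had formulation, 5 micro ZnO, 6 nano ZnO and 5 no treatment. All groups were of the same strain, were housed singly, wore collars against licking and were killed after an injection of Xylase and ketamine. Age and the hour of death were not given in the sources used here.

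The acute-phase response is the change in the proteins that liver releases into blood during infection, injury or inflammation. Interleukin-6, acting through STAT3, and interleukin-1 and tumour necrosis factor, acting through NF-kB and C/EBP factors, drive it in hepatocytes. Serum amyloid A and the orosomucoids are the steepest responders in mouse liver, and the genes described here include protease inhibitors, a pentraxin and lipopolysaccharide-handling proteins that respond in the same programme. The label of plasma proteins fits most of them as background, but not Steap4, a membrane metalloreductase, and Cd14 occurs both on cell membranes and in soluble form.

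Values are log2 intensities, so that 1 unit is a doubling. Array medians lay at 3.98 to 4.12 in the pregnant experiment and 4.66 to 4.90 in the virgin one, so levels were set side by side within an experiment only. Between arrays of 1 experiment Pearson correlations over all probe sets were 0.971 to 0.99 (pregnant) and 0.968 to 0.989 (virgin), and no 2 arrays were identical. Itih3, Itih4, Serpina3n, Apcs, Fgl1 and Lbp lay at or above the 97.08th percentile of all probe sets with a symbol in every group. The hepatocyte markers summed to 15.27 to 15.49 in pregnant and 15.73 to 15.95 in virgin mice. Steap4 lay between the 94.29th and 97.81st percentiles. Cd14 lay between the 30.29th and 63.42nd and Il1rn between the 45.48th and 66.33rd percentiles, so both were dim. Apart from these percentiles, a probe set's level was not set against another's. In whole liver, fewer cells of a type and less RNA per cell cannot be told apart.

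Pregnant micro ZnO replicates 3 and 4 stood apart from the other 20 pregnant mice. Cd14 was 9.28 and 8.09 in them, against 3.42 to 5.38 in the other 20, and Il1rn was 7.97 and 7.66, against 4.05 to 5.21. The members' results of that group are given with and without these mice.

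Promoter sequences are shown for 5 members whose changes are described below, because hepatocyte acute-phase genes are known to respond through STAT3 and C/EBP sites close to the start of transcription. Of the 10 genes, 6 had a promoter in the RefSeq table used (build GRCm38.p6), which gives 250 bases before to 50 bases after the start. Capitals mark matches, searched on both strands, to 3 motifs: the STAT palindrome TTCNNNGAA, the core of the interleukin-6 response element CTGGGAA and the C/EBP-type sequence TTNNGNAAT. Of 32851 mouse promoters of the same length, 8.3% hold the STAT palindrome, 11.1% the interleukin-6 core and 11.5% the C/EBP-type sequence. Itih3 is read from the minus strand at chr14:30923538-30923837, Itih4 from the plus strand at chr14:30886226-30886525, Serpina3n from the plus strand at chr12:104406458-104406757, Apcs from the minus strand at chr1:172895005-172895304 and Steap4 from the plus strand at chr5:7960222-7960521.
Itih3: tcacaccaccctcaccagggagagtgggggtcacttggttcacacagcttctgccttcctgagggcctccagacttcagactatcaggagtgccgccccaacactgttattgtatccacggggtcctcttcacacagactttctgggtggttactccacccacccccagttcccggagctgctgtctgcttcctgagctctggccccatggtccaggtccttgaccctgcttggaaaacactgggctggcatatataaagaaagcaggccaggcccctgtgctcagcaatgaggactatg
Itih4: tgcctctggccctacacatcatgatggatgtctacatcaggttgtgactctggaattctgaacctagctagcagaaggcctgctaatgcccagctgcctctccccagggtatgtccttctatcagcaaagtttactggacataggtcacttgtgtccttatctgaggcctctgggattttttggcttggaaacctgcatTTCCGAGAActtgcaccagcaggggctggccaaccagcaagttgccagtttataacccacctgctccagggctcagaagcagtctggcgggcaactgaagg
Serpina3n: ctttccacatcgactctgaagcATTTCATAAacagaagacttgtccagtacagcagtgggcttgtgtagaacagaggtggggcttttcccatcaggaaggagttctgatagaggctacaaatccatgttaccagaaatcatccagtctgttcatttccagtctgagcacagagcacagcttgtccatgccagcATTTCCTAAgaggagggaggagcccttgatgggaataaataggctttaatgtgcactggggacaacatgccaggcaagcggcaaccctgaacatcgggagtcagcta
Apcs: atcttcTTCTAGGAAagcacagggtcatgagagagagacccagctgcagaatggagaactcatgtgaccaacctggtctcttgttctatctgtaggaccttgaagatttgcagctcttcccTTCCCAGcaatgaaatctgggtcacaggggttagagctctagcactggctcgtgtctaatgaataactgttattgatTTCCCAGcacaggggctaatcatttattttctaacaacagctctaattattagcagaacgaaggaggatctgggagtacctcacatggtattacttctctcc
Steap4: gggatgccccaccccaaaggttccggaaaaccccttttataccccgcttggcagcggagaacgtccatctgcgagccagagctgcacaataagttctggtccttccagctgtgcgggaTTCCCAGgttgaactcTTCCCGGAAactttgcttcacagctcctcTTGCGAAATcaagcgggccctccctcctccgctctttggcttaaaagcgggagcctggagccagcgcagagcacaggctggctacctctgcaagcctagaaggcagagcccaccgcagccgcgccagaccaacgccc
Itih3 held none of the 3 motifs in this window, and its neighbour Itih4 had a STAT palindrome beginning at position -51 from the start site. Serpina3n had a pair of C/EBP-type matches, at -228 and -57. Apcs had a STAT palindrome at -244 and interleukin-6 cores at -129 and -52. Steap4 held all 3, a STAT palindrome at -116, an interleukin-6 core at -132 and a C/EBP-type match at -87. The interleukin-6 core also occurred in each of the 3 annotated Il1rn promoters. Promoters 2 and 3 of these overlap, and their matches, at -121 and -201, are the same bases. No 2 matches overlapped in the promoters printed. A match describes letters and is no measured site of binding.

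In virgin mice Itih3, Itih4 and Serpina3n rose under every sunscreen, Apcs and Fgl1 rose with formulation and micro ZnO, and Lbp rose with micro ZnO. No measured member fell. Formulation alone raised 5 of the 9 measured members, against 11.5% of all 23410 tested probe sets higher (26.5% called in either direction). Micro ZnO raised 6 of 9, against 1.63% higher (4.43% either way), and nano ZnO raised 3 of 9, against 4.77% higher (11.9% either way). A call is an adjusted p under 0.05 in limma, two-sided, with Benjamini-Hochberg adjustment over all 23410 probe sets that carry a symbol. The median log2 change of the 9 members was 0.435 for formulation, 0.447 for micro ZnO and 0.212 for nano ZnO, where the median of all tested probe sets was 0.029, 0.0128 and 0.02. The 3 comparisons share the same untreated mice, so they are not independent of each other. The number behind each ± is a standard error on the log2 scale.

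**Figure D1:**
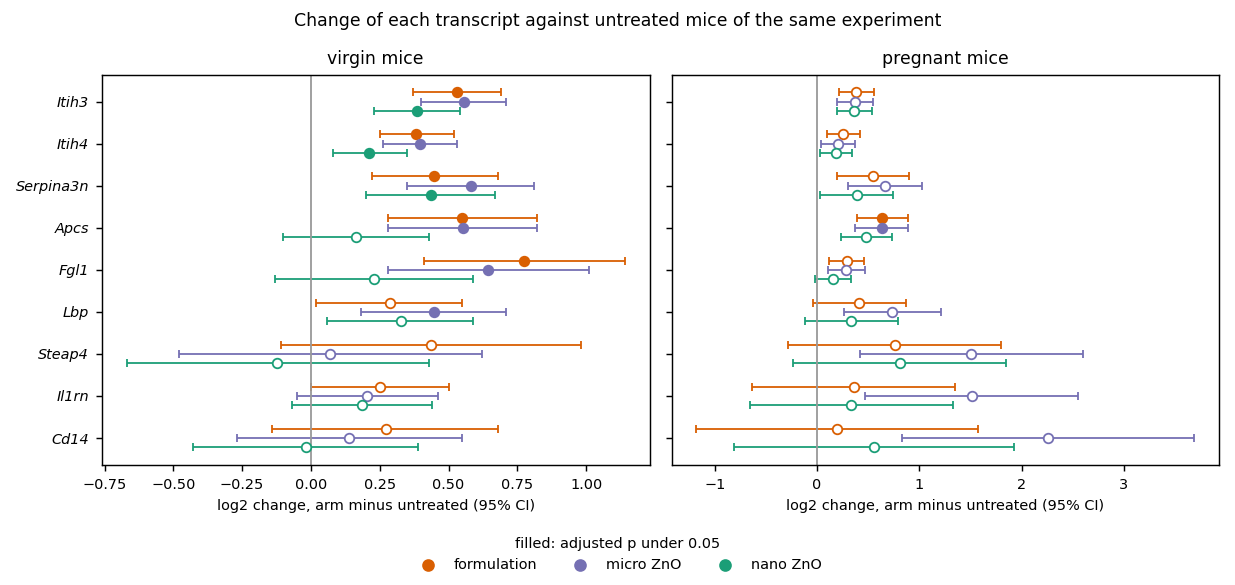
Log2 change (horizontal axis) of each of the 9 measured genes (vertical axis) in formulation, micro ZnO and nano ZnO mice minus untreated mice of the same experiment, virgin on the left and pregnant on the right, with bars for the 95% confidence interval and filled points for an adjusted p under 0.05. The horizontal axes of the panels differ in range. In virgin mice Itih3 is filled in all arms (0.53, 0.55 and 0.39), and in pregnant mice Apcs is filled for formulation (0.64) and micro ZnO (0.63), while Cd14 under micro ZnO (2.26) has the widest interval.

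Itih3 and Itih4 encode heavy chains of the inter-alpha-trypsin inhibitor family, plasma proteins that bind hyaluronan or act as kallikrein substrates. They lie next to each other on chromosome 14 (Itih3 at 30908572-30923787, Itih4 at 30886476-30901986, GRCm38.p6). Itih3 was 11.89, 12.07 and 12.25 (lowest, median, highest) in formulation, 11.85, 12.15 and 12.34 in micro ZnO and 11.89, 11.93 and 12.00 in nano ZnO mice, against 11.45, 11.54 and 11.72 in untreated virgin mice. All 18 sunscreen-treated mice lay above all 6 untreated mice, as in 0.1538% of all 23410 tested probe sets. The changes were 0.53 ± 0.08 (limma adjusted p = 5.94e-05) for formulation, 0.55 ± 0.08 (adjusted p = 0.000136) for micro ZnO and 0.39 ± 0.08 (adjusted p = 0.00234) for nano ZnO.

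Itih4 was 12.49, 12.59 and 12.77 in formulation, 12.46, 12.64 and 12.74 in micro ZnO and 12.29, 12.46 and 12.54 in nano ZnO mice, against 12.11, 12.21 and 12.31 in untreated mice. Formulation and micro ZnO mice lay entirely above the untreated ones, as in 2.811% and 1.055% of tested probe sets. Of 6 nano ZnO mice, 5 did. It rose by 0.38 ± 0.07 with formulation (limma adjusted p = 0.000315), 0.40 ± 0.07 with micro ZnO (adjusted p = 0.000987) and 0.21 ± 0.07 with nano ZnO (adjusted p = 0.0351). The nano ZnO call was lost when any of nano ZnO replicates 3 to 6 or untreated replicates 1 and 3 to 6 was left out, with changes of 0.19 to 0.24. It was also lost with a further quantile normalization, with the compared groups alone, with the replicate number as a block and with a covariate that scores clock genes on each array (the clock score).

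Serpina3n, a mouse serine protease inhibitor related to human antichymotrypsin, lies on chromosome 12 (104406646-104414334) beside near-identical Serpina3 genes, Serpina3m (104387157-104394259) among them. Its probes may bind transcripts of these relatives, and this was not tested. Serpina3n was 11.66, 11.74 and 12.36 in formulation, 11.75, 11.98 and 12.29 in micro ZnO and 11.69, 11.78 and 12.15 in nano ZnO mice, against 11.22, 11.45 and 11.60 in untreated mice. Every treated virgin mouse exceeded the highest untreated one, as in 0.1538% of tested probe sets. The changes were 0.45 ± 0.11 (limma adjusted p = 0.00556) for formulation, 0.58 ± 0.11 (adjusted p = 0.00363) for micro ZnO and 0.43 ± 0.11 (adjusted p = 0.0138) for nano ZnO.

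Apcs encodes serum amyloid P component, the pentraxin that acts as a major acute-phase reactant in mice (chromosome 1, 172893961-172895054). It was 10.65, 11.04 and 11.55 in formulation, 10.80, 11.09 and 11.28 in micro ZnO and 10.40, 10.69 and 11.06 in nano ZnO mice, against 10.11, 10.60 and 10.78 in untreated mice. All 6 micro ZnO mice, 5 of 6 formulation mice and 1 of 6 nano ZnO mice lay above every untreated mouse. Full separation of micro ZnO mice in this direction was seen in 1.055% of tested probe sets. Apcs rose by 0.55 ± 0.13 with formulation (limma adjusted p = 0.00359) and by 0.55 ± 0.13 with micro ZnO (adjusted p = 0.0153), while the nano ZnO value of 0.17 did not pass (adjusted p = 0.425, 95% confidence interval -0.10 to 0.43).

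Fgl1, a fibrinogen-like protein that hepatocytes secrete, had the highest log2 change of the 9 with formulation. Its values were 11.65, 12.05 and 12.60 in formulation, 11.73, 11.96 and 12.30 in micro ZnO and 11.24, 11.47 and 12.23 in nano ZnO mice, against 10.76, 11.31 and 11.80 in untreated mice. Untreated mice spread widely, and 5 formulation, 4 micro ZnO and 1 nano ZnO mice lay above all of them. Fgl1 rose by 0.78 ± 0.18 with formulation (limma adjusted p = 0.00268) and 0.64 ± 0.18 with micro ZnO (adjusted p = 0.0361). The nano ZnO value of 0.23 did not pass (adjusted p = 0.416, interval -0.13 to 0.59). The micro ZnO call was lost without any of micro ZnO replicates 4 to 6 or untreated replicates 1, 3, 5 or 6 (0.53 to 0.74). It was also lost with all probe sets tested, an intensity trend, a further quantile normalization, the replicate block and the clock score.

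Lbp and Cd14 are partners in the handling of bacterial lipopolysaccharide, since Lbp passes it to Cd14, which hands it to the Tlr4 and Ly96 receptor. Lbp (chromosome 2, 158306493-158332852) was 10.06, 10.16 and 10.84 in formulation, 10.17, 10.41 and 10.67 in micro ZnO and 9.95, 10.32 and 10.72 in nano ZnO mice, against 9.69, 10.03 and 10.19 in untreated mice. The groups overlapped, with 2 formulation, 5 micro ZnO and 4 nano ZnO mice above every untreated mouse. Lbp rose with micro ZnO by 0.45 ± 0.13 (limma adjusted p = 0.0448), and the values of 0.29 for formulation (adjusted p = 0.0956) and 0.33 for nano ZnO (adjusted p = 0.0924) did not pass. The micro ZnO call was lost without any of micro ZnO replicates 2 to 6 or untreated replicates 1, 3, 5 or 6 (0.39 to 0.50, adjusted p up to 0.107). It was lost as well with all probe sets tested, an intensity trend, the replicate block and the clock score.

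Cd14 was 3.89, 4.42 and 5.39 in formulation, 4.09, 4.33 and 4.53 in micro ZnO and 3.57, 4.14 and 4.82 in nano ZnO mice, against 3.83, 4.19 and 4.60 in untreated virgin mice. The ranges of all 4 groups overlapped. Its log2 changes of 0.27, 0.14 and -0.02 did not pass in any arm (limma adjusted p of 0.312 for formulation). Il1rn, the secreted antagonist of the interleukin-1 receptor, had highest values of 5.41 in formulation, 5.28 in micro ZnO and 5.37 in nano ZnO mice, against 5.10 in untreated mice. The lowest values were 4.73, 4.79 and 4.70 in those arms, against 4.53 in untreated mice, so the groups overlapped. Il1rn changes of 0.25, 0.20 and 0.19 did not pass. Steap4, which reduces iron and copper at the membrane, was 8.86, 9.17 and 11.31 in formulation, 8.77, 9.17 and 9.52 in micro ZnO and 8.49, 8.94 and 9.71 in nano ZnO mice, against 8.96, 9.07 and 9.26 in untreated mice. The value of 11.31 belonged to formulation replicate 1, and no Steap4 change passed (0.44, 0.07 and -0.12).

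**Figure D2:**
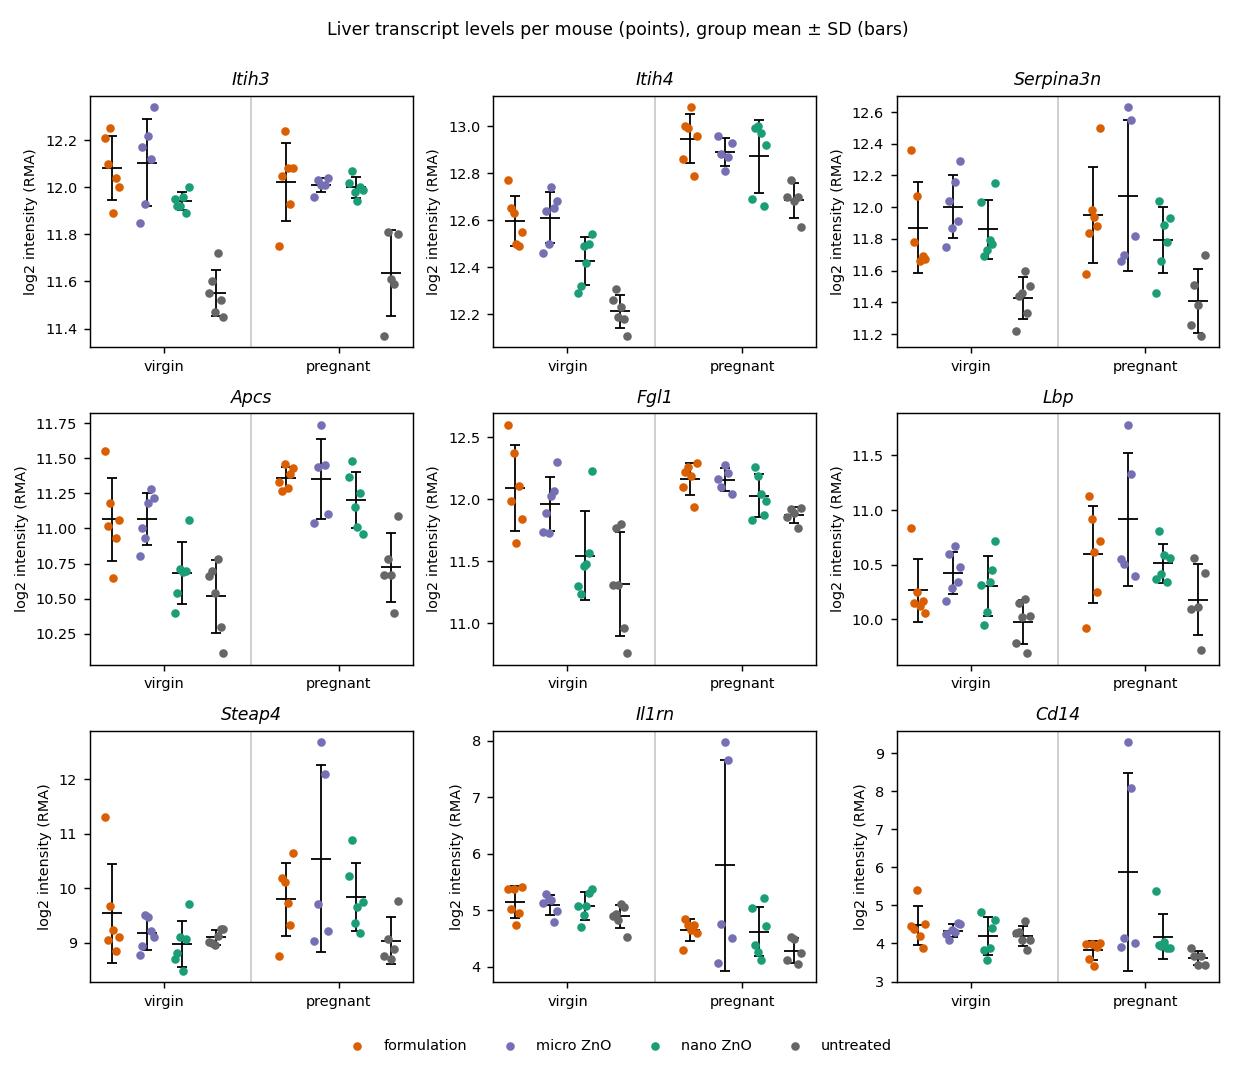
Log2 intensity (vertical axis) of each of the 9 measured genes in every mouse, 1 panel per gene, with the 8 groups on the horizontal axis, a point per mouse, and a bar for the mean with the SD. In virgin mice all treated points for Itih3 lie above the untreated points (11.85 or more, against 11.72 or less), and in Cd14, Il1rn and Steap4 the 2 points of pregnant micro ZnO replicates 3 and 4 lie far above the others (Cd14 9.28 and 8.09).

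Set together, the 18 treated virgin mice had higher Itih3 (0.49), Itih4 (0.33), Serpina3n (0.49), Lbp (0.35), Apcs (0.42) and Fgl1 (0.55) than the 6 untreated mice, 6 of 9 members against 9.82% of probe sets higher (22% either way, limma). The member median was 0.354 and that of all tested probe sets 0.0211. The Lbp call was lost without untreated replicate 1 or 5 (0.30 to 0.40). No member differed between the sunscreens by the adjusted p. Micro ZnO minus formulation called 0 members, where 6.83% of probe sets were called, and 0 members had an unadjusted p under 0.05. Its intervals were narrow for Itih3 (-0.13 to 0.18) and Itih4 (-0.12 to 0.15) and wider for Fgl1 (-0.50 to 0.23).

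Nano ZnO minus formulation also called 0 members, against 3.25% of probe sets. Itih4, Apcs, Steap4 and Fgl1 had an unadjusted p under 0.05 there, each lower with nano ZnO, as did 4123 of the 23410 probe sets in either direction. Apcs averaged 10.68 in nano ZnO and 11.07 in formulation mice, a difference of -0.38 ± 0.13 (limma adjusted p = 0.103). Fgl1 averaged 11.55 in nano ZnO and 12.09 in formulation mice, a difference of -0.55 ± 0.18 (limma adjusted p = 0.0867). Without nano ZnO replicate 6 the Fgl1 difference passed (-0.68, adjusted p = 0.0418), and without formulation replicate 4 that of Apcs did (-0.47, adjusted p = 0.0429).

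Nano ZnO minus micro ZnO called 0 members and 0% of all probe sets by limma, although 4 members and 1106 probe sets had an unadjusted p under 0.05. These members were Itih3 (-0.17), Itih4 (-0.18), Apcs (-0.39) and Fgl1 (-0.41), all lower with nano ZnO and all with an adjusted p of 0.993. The 95% confidence interval of the Apcs difference ran from -0.65 to -0.12.

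In pregnant mice the log2 values of the 6 secreted liver proteins ran from 0.15 to 0.73 above untreated, and few passed the test. Formulation raised 1 of 9 members, Apcs, against 0.0384% of probe sets higher (0.0598% either way). Micro ZnO raised 1 of 9, again Apcs, against 0.0726% higher (0.107% either way), and nano ZnO called 0 of 9, against 0.0171% higher (0.0214% either way). An unadjusted p under 0.05 was reached by 5 members under formulation, all 9 under micro ZnO and 4 under nano ZnO, and by 2890, 2126 and 2396 of the 23410 probe sets in those comparisons. These comparisons also share their 5 untreated mice.

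Apcs was 11.27, 11.36 and 11.46 in pregnant formulation mice, and 11.04, 11.44, 11.74, 11.45 and 11.10 in the 5 micro ZnO mice. It was 10.96, 11.20 and 11.48 in nano ZnO mice, against 10.67, 10.78, 10.67, 10.40 and 11.09 in the 5 untreated mice. Formulation mice lay entirely above untreated mice, as in 0.88% of tested probe sets. Above all untreated mice lay 4 of 5 micro ZnO and 4 of 6 nano ZnO mice. Apcs rose by 0.64 ± 0.12 with formulation (limma adjusted p = 0.0424) and 0.63 ± 0.13 with micro ZnO (adjusted p = 0.0453), and the nano ZnO value of 0.48 did not pass (adjusted p = 0.22). The formulation call was lost without any single mouse of either group other than untreated replicate 5 (0.56 to 0.73). The micro ZnO call was lost without micro ZnO replicate 3 or 4 or any of untreated replicates 1 to 4 (0.53 to 0.72), and without replicates 3 and 4 together it was 0.47 (adjusted p = 0.624).

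Itih3 was 11.75, 12.06 and 12.24 in pregnant formulation mice, and 11.96, 12.03, 12.01, 12.01 and 12.04 in the micro ZnO mice. It was 11.94, 11.99 and 12.07 in nano ZnO mice, against 11.37, 11.81, 11.61, 11.59 and 11.80 in untreated mice. All micro ZnO and nano ZnO mice lay above all untreated mice, as in 0.7561% and 0.6664% of tested probe sets. Of 6 formulation mice, 5 did. The log2 values of 0.39, 0.37 and 0.36 did not pass in single arms (limma adjusted p of 0.0871 for formulation, 0.0955 for micro ZnO and 0.185 for nano ZnO). With the 17 treated pregnant mice together, Itih3 rose by 0.37 ± 0.07 (limma adjusted p = 0.0192) and Apcs by 0.58 ± 0.10 (adjusted p = 0.0116), 2 of 9 members against 0.0982% of probe sets higher (0.175% either way). Both calls held without micro ZnO replicates 3 and 4 (Itih3 0.37, adjusted p = 0.0402, and Apcs 0.53, adjusted p = 0.0148), and both were lost without untreated replicate 1, 3 or 4 (Itih3 0.31 to 0.42, Apcs 0.50 to 0.68). Both were also lost with the clock score as a covariate (Itih3 0.34, limma adjusted p = 0.202, and Apcs 0.58, adjusted p = 0.0805).

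Serpina3n, Itih4, Fgl1 and Lbp did not pass in pregnant mice. Serpina3n values were 0.54, 0.66 and 0.39 for formulation, micro ZnO and nano ZnO minus untreated, with limma adjusted p of 0.26 and 0.176 for formulation and micro ZnO. In 5 of 6 formulation, 3 of 5 micro ZnO and 4 of 6 nano ZnO mice Serpina3n exceeded all untreated mice. Itih4 was 12.79, 12.97 and 13.08 in formulation, 12.81, 12.88 and 12.96 in micro ZnO and 12.66, 12.94 and 13.00 in nano ZnO mice, against 12.57, 12.70 and 12.77 in untreated mice. Formulation and micro ZnO mice thus lay entirely above untreated mice, with limma adjusted p of 0.245 for the formulation value of 0.26. Such separation was seen in 0.88% of tested probe sets with formulation and 0.7561% with micro ZnO. Fgl1 showed the same separation in those arms, with lowest values of 11.94 in formulation and 12.04 in micro ZnO mice, against a highest value of 11.93 in untreated mice (formulation 0.29, limma adjusted p = 0.233).

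Replicates 3 and 4 of pregnant micro ZnO separated the members into 2 sets. Cd14 was 3.90, 4.13, 9.28, 8.09 and 4.00 in micro ZnO replicates 1 to 5, against 3.89, 3.68, 3.44, 3.66 and 3.43 in untreated mice. Steap4 was 9.04, 9.71, 12.68, 12.10 and 9.21 in those micro ZnO mice, against 8.76, 9.08, 8.71, 8.89 and 9.77 in untreated mice. Il1rn was 4.07, 4.75, 7.97, 7.66 and 4.51 in micro ZnO mice, against 4.11, 4.53, 4.48, 4.05 and 4.24 in untreated mice. In both animals Cd14, Steap4, Il1rn, Lbp (11.78 and 11.33) and Serpina3n (12.63 and 12.55) exceeded every other pregnant mouse. Itih3 (12.01 and 12.01) and Itih4 (12.81 and 12.87) did not, and Fgl1 (12.28 and 12.21) stayed at or below the highest other pregnant mouse, 12.29. Apcs exceeded the highest other mouse, 11.48, in replicate 3 (11.74) and not in replicate 4 (11.45).

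With these animals the micro ZnO values were 2.26 ± 0.70 for Cd14 (limma adjusted p = 0.246), 1.51 ± 0.53 for Steap4 (adjusted p = 0.336) and 1.51 ± 0.50 for Il1rn (adjusted p = 0.307), none of which passed. Without them they were 0.39, 0.28 and 0.16, and those of Lbp and Serpina3n were 0.31 and 0.32, against 0.73 and 0.66 with them. Itih3, Itih4 and Fgl1 were 0.37, 0.24 and 0.23 without them, against 0.37, 0.20 and 0.29 with them, and 7 probe sets in all were called, against 25. Some markers of other cells were higher in the same animals. The 11 Kupffer cell and macrophage markers summed to 10.34, 10.39, 10.92, 11.10 and 10.40 in replicates 1 to 5. The 11 neutrophil markers summed to 9.56, 9.26, 10.47, 10.37 and 8.97. A high neutrophil sum was not particular to replicates 3 and 4, since it reached 10.89 in pregnant nano ZnO mice. In both animals Adgre1, Marco, Timd4 and Lyz2, 4 of 11 Kupffer cell and macrophage markers, and Mmp8, 1 of 11 neutrophil markers, exceeded all other pregnant mice. The other 7 Kupffer cell and macrophage markers, Cd5l, Csf1r, Cd68, C1qa, C1qb, Clec4f and Vsig4, did not do so in both. Clec4f was 6.24 and 7.62 and Vsig4 5.18 and 6.95 in replicates 3 and 4, below the means of 7.86 and 7.18 in untreated pregnant mice. Their hepatocyte markers summed to 15.36 and 15.38, within the range of 15.33 to 15.39 of the group. In the other pregnant arms these 3 members did not pass either. Steap4 was 0.76 with formulation and 0.81 with nano ZnO (limma adjusted p of 0.543 and 0.565), Il1rn 0.36 and 0.34, and Cd14 0.20 and 0.56. With all treated pregnant mice together Steap4 was 1.02 (limma adjusted p = 0.312), and 0.61 without replicates 3 and 4. Cd14, though dim, exceeded all untreated mice in all 6 nano ZnO mice, as in 0.6664% of probe sets. The lowest nano ZnO value and the highest untreated value both rounded to 3.89, so the margin was minimal. The part of other cells in the Cd14, Il1rn and Steap4 values was not tested.

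**Figure D3:**
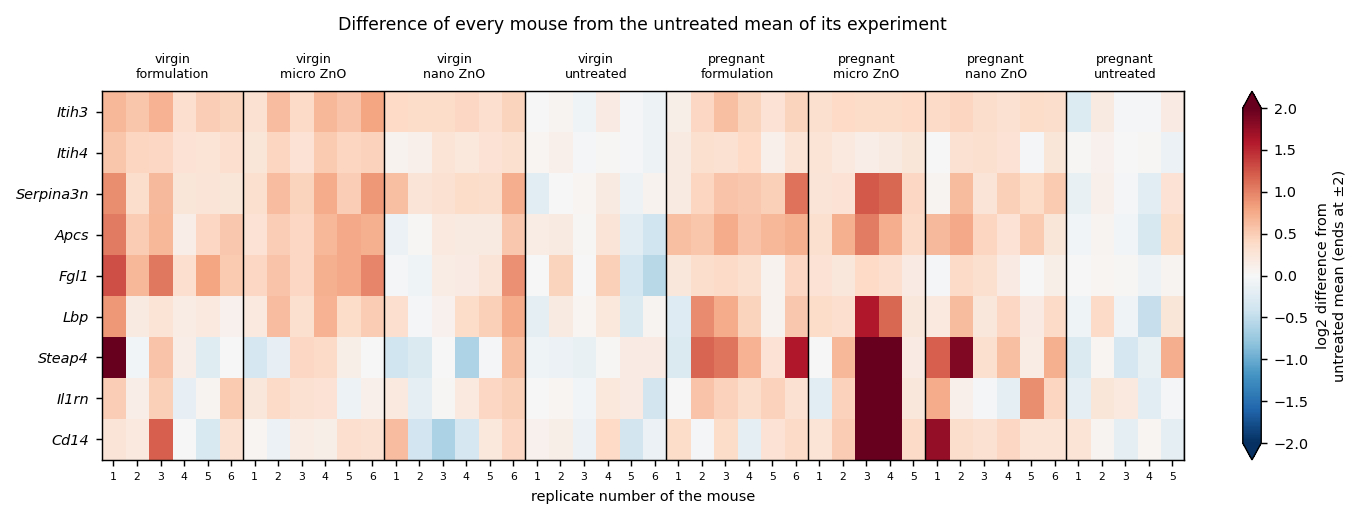
Difference of each mouse (columns, 46 mice in 8 groups) from the mean of the untreated mice of its own experiment, in log2 units, for the 9 measured genes (rows), with the colour scale ending at -2 and 2. Itih3 is above 0 in all 35 treated mice, and 2 pregnant micro ZnO columns, replicates 3 and 4, are at the end of the scale for Cd14, Il1rn and Steap4.

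The difference in response between the experiments, pregnant minus virgin, was tested. Pregnancy cannot be told apart from other differences between the experiments in it. No member was called for formulation (0.145% of probe sets called), micro ZnO (0.047%), nano ZnO (0.0427%) or any sunscreen (0.0812%). For any sunscreen the difference in response was -0.12 for Itih3, with a 95% confidence interval of -0.30 to 0.07, and -0.11 for Itih4 (-0.27 to 0.05). It was 0.16 for Apcs (-0.15 to 0.47) and 0.04 for Serpina3n (-0.31 to 0.39). With micro ZnO, Cd14 (2.12), Steap4 (1.44) and Il1rn (1.31) had unadjusted p under 0.05 and limma adjusted p of 0.386, 0.561 and 0.52. Without replicates 3 and 4 these differences were 0.25, 0.21 and -0.04. Fgl1 with formulation was the one other member with a low unadjusted p (difference -0.48, limma adjusted p = 0.404), with a response of 0.29 in pregnant and 0.78 in virgin mice.

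Comparisons among the sunscreens called 0 members in pregnant mice, and 0% of probe sets, for micro ZnO against formulation, nano ZnO against formulation and nano ZnO against micro ZnO. Unadjusted p under 0.05 were reached by 1639, 718 and 1086 probe sets in these 3 comparisons and by 2, 0 and 2 members. The members were Cd14 (2.07 for micro ZnO minus formulation, -1.70 for nano ZnO minus micro ZnO) and Il1rn (1.15 and -1.17), and without replicates 3 and 4 of micro ZnO these were 0.20 and 0.17 for Cd14 and -0.19 and 0.17 for Il1rn. For Itih3 the nano ZnO minus micro ZnO interval was -0.18 to 0.16 and for Apcs -0.40 to 0.10.

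Other acute-phase genes were read from a list of 28, of which 26 had a probe set. In virgin mice 15 rose with formulation, 14 with micro ZnO and 9 with nano ZnO, and 0 fell. Of all tested probe sets, 11.5%, 1.63% and 4.77% were higher in those arms. Their median log2 change was 0.40, 0.40 and 0.26, beside 0.435, 0.447 and 0.212 for the members. Among them were Saa2 at 3.98, 3.73 and 2.75, Saa1 at 3.84, 3.82 and 2.93 and Orm2 at 3.08, 3.15 and 2.61 in those arms. In pregnant mice 7 rose with formulation, 9 with micro ZnO, 4 with nano ZnO and 0 fell, against 0.0384%, 0.0726% and 0.0171% of probe sets higher. Of 11 measured negative acute-phase genes, those that are known to fall in inflammation, 0 fell in virgin mice. Fetub rose with micro ZnO (0.29), and Serpina6 (0.48), Fetub (0.34) and Rbp4 (0.17) rose with nano ZnO. That was 0 of 11 with formulation, 1 with micro ZnO and 3 with nano ZnO, where 26.5%, 4.43% and 11.9% of probe sets were called.

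Relatives and partners of the members were called in both directions. Of 19 measured of 27 listed, 3 rose and 5 fell in virgin mice with formulation (26.5% of all probe sets called). With micro ZnO 0 rose and 1 fell (Steap3, -0.49), against 4.43% of probe sets called. With nano ZnO 0 rose and 1 fell (Steap3, -0.43), against 11.9%. With formulation Itih5 (-0.67), Ly96 (-0.52), Il1rap (-0.50) and Tlr4 (-0.45) fell. Ly96 and Tlr4 form the receptor complex that takes lipopolysaccharide from Cd14, Il1rap is the accessory chain of the interleukin-1 receptor, and Il1b, its ligand, rose (0.52). No relative was called in pregnant mice, by limma at the same threshold, where the single arms called 0.0214% to 0.107% of probe sets.

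Among 25 measured inducers and transcription factors of the acute phase, 4 rose and 4 fell in virgin mice with formulation, where 26.5% of all probe sets were called, so this share was near the background. Cebpb, a C/EBP factor, rose by 0.88, Socs3, a feedback inhibitor of STAT3 signalling, by 0.50 and Nfkbia, an NF-kB inhibitor and target, by 0.34. Lifr (-0.81) and Il6st (-0.31), receptor chains of the interleukin-6 family, fell. With micro ZnO 1 rose (Cebpb, 0.51) and 2 fell (Lifr, -0.55, and Irak1, -0.21), against 4.43% of probe sets called. With nano ZnO 2 rose (Cebpb, 0.67, and Relb, 0.33) and 2 fell (Rela, -0.27, and Irak1, -0.24), against 11.9%. In pregnant mice 0 of the 25 were called, where the single arms called 0.0214% to 0.107% of probe sets.

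Some markers of other cells and of the hour of the day were called in the virgin comparisons too. Of all tested probe sets, 26.5% were called in either direction with formulation, 4.43% with micro ZnO and 11.9% with nano ZnO. Of 11 neutrophil markers 5 rose with formulation, 0 with micro ZnO and 4 with nano ZnO, and 0 fell. They summed to 7.92 to 8.90 in formulation, 7.48 to 8.10 in micro ZnO and 8.0 to 9.68 in nano ZnO mice, against 7.70 to 7.92 in untreated mice. The 11 Kupffer cell and macrophage markers, of which 1 fell in each arm, summed to 10.24 to 10.98, 10.00 to 10.55 and 10.11 to 10.78 in those arms, against 10.40 to 10.95 in untreated mice. Of 9 endothelial markers 5 fell in each arm. Of 14 measured clock genes 4 rose and 1 fell with formulation, 8 rose and 2 fell with micro ZnO and 8 rose and 4 fell with nano ZnO. With formulation the clock genes were near the share of all probe sets, and the Kupffer cell and macrophage markers were below it. A clock score, which summarises these genes in 1 number per array, was -1.48 to 0.71 in formulation, -0.28 to 2.19 in micro ZnO and 0.50 to 1.28 in nano ZnO mice, against -1.75 to -1.14 in untreated mice. In pregnant mice it was -0.01 to 1.25 (median 0.99) in formulation, -0.49 to 1.59 (0.67) in micro ZnO and -1.88 to 1.76 (0.39) in nano ZnO mice, against -1.85 to 1.23 (-1.55) in untreated mice.

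The clock score was then entered in the fit as a covariate. In virgin micro ZnO mice all 6 called members kept changes at least as large (0.52 to 0.81), but SEs were 1.66 to 1.73 times as wide and 0 of 6 were called (limma adjusted p of 0.0662 to 0.55), with 10 probe sets called overall. In nano ZnO mice 0 of 3 were called (0.34 to 0.68). With formulation, where the score overlapped that of untreated mice, the 5 calls remained, and Steap4 was called beside them (0.84, limma adjusted p = 0.0497). Micro ZnO and nano ZnO mice did not overlap untreated mice in this score, so the hour of death or another clock difference cannot be told apart from the treatment in those arms.

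The spread of values on the arrays also differed. Its interquartile range was 2.76 to 2.89 in formulation, 2.87 to 2.94 in micro ZnO and 2.84 to 2.99 in nano ZnO mice, against 2.90 to 3.09 in untreated mice. No formulation array overlapped the untreated arrays in this range, so array width cannot be told apart from the treatment in that arm. With this range as a covariate, Itih3 (0.58, limma adjusted p = 0.00965) and Itih4 (0.46, adjusted p = 0.0115) were still called with formulation. Serpina3n, Apcs and Fgl1 were not, with all 5 changes at least as large (0.46 to 0.97, adjusted p up to 0.0594). Over all probe sets 179 were called with this covariate, against 6203 without it.

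**Figure D4:**
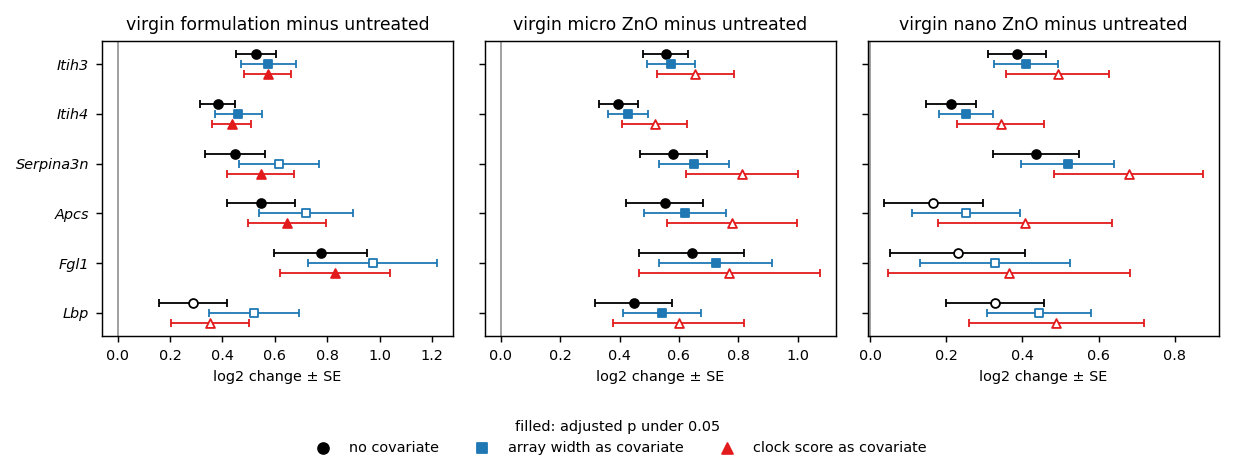
Log2 change from untreated virgin mice (horizontal axis, with the SE as bars) of the 6 secreted genes (vertical axis) in formulation, micro ZnO and nano ZnO mice, fitted with no covariate, with the interquartile range of each array (array width) and with the clock score, with filled points for an adjusted p under 0.05. The points stay above 0 in all fits shown, while error bars widen with a covariate, and in the micro ZnO and nano ZnO panels no point is filled with the clock score.

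The members also varied together among mice of the same group. Over deviations from group means on 46 arrays, correlations of the 36 member pairs ranged from -0.19 to 0.89 with a median of 0.53, and 34 were above 0. These arrays share processing, and within each experiment the mice share a normalization, so the values are descriptive. Cd14 with Il1rn had 0.89, which was 0.93 in pregnant and 0.45 in virgin mice, and among pregnant mice replicates 3 and 4 of micro ZnO lay far out. Serpina3n with Lbp had 0.79 (0.77 pregnant, 0.83 virgin). Apcs with Fgl1 had 0.35 in pregnant and 0.91 in virgin mice, and Itih4 with Apcs had -0.40 in pregnant and 0.84 in virgin mice. 

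Among 19929 genes, the 3 with the highest Pearson correlation to each member in these deviations were taken. For Serpina3n they were Il6st (Pearson 0.85), Saa4 (0.85) and Lrg1 (0.84), for Lbp Crp (0.83), Lrg1 (0.78) and Hp (0.77), and for Apcs Lrg1 (0.73), Qsox1 (0.71) and Fgg (0.70). For Itih3 they were Orm3 (0.66), Hp (0.64) and Pros1 (0.64), and for Fgl1 Lrg1 (0.65), Orm1 (0.64) and Lcn2 (0.63). For Itih4 they were Vtn (0.78), Dap (0.76) and Rps29 (0.74). For Steap4 they were Tifa (0.85), Slc11a2 (0.85) and Rhbdf2 (0.82), and for Il1rn Nfkbia (0.91), Ms4a4a (0.90) and Spic (0.90). In virgin mice alone those of Il1rn were 0.62, 0.60 and 0.44, against 0.94, 0.93 and 0.93 in pregnant mice. Cd14 was closest to Irak3 (0.93), Tlr2 (0.92) and Nfkb2 (0.92), but in virgin mice alone these were 0.25, -0.19 and -0.24.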

How the data were processed

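Liver RNA of 46 mice was measured on Affymetrix whole-transcript arrays, 1 per mouse. The authors deposited log2 intensities from RMA, which corrects background, normalizes by quantiles and summarizes probes, per the submitters' processing notes. No version, detection call or scan date was given in the sources used here. Array medians and the number of decimals differed between the virgin and pregnant experiments, which was read as separate normalization. All 46 columns were used.

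Of 35512 probe sets, 23410 carried a symbol (1621 of them several) and were tested, and 12102 without one were left out. Arms were compared within each experiment with limma 3.58.1 in R 4.3.3, by linear models with empirical Bayes moderation. A joint model of the 8 groups gave the difference in response, pregnant minus virgin. Benjamini-Hochberg adjustment ran over all 23410 probe sets, tests were two-sided, and the threshold was an adjusted p under 0.05. The fitting was tested on simulated data. All animals count as separate biological replicates per the labels, and precision is limited by how many arrays there are.

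Members and gene lists were chosen with earlier results of these data known. All 10 members are named where measured, and from each list up to 6 called genes with the largest change. The lists covered other acute-phase and negative acute-phase proteins, relatives and partners, inducers, clock genes and markers of liver and blood cells. The clock score is the mean of Dbp, Tef, Hlf, Ciart, Per2, Per3 and Nr1d2 minus that of Arntl, Npas2, Clock and Nfil3. Likeness is the correlation of deviations from group means. Alternatives were another set of probe sets, a filter on dim ones, array weights, a further quantile normalization, intensity trend, the compared groups alone, the replicate number as a block, covariates, and leaving out mice.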

Additional observations from a re-analysis of the deposited data

Results flagged for a closer look

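Among the 9 measured members, 72 combinations of gene and group were checked for 1 mouse far from the others of its group, by the gap to its nearest neighbour over the range of the group. The 4 found are near the 3.6 that chance gives at 1 in 20. Lbp was 10.84 in virgin formulation replicate 1, with a gap of 0.76 of the range, and Steap4 was 11.31 in the same mouse, with a gap of 0.66. Cd14 was 5.38 in pregnant nano ZnO replicate 1, with a gap of 0.90 of the range. Fgl1 was 12.23 in virgin nano ZnO replicate 6, with a gap of 0.67. The rule cannot see mice of a group that lie far out together. Pregnant micro ZnO replicates 3 and 4 were therefore not flagged for Cd14, Il1rn or Steap4.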

How the results depend on the processing

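The count of members called kept within 1.5 times its value in 153 of 170 comparisons under other settings. In most of these 153, 0 members were called both in the main fit and under the other setting, so no call could be lost. All 17 counts that moved belonged to comparisons with at least 1 member called in the main fit. No called change reversed its sign (0 of 4194 values, most of them called in neither fit). Among values called in neither fit there were 159 sign changes. For pregnant formulation minus untreated, 1 member became 0 with all probe sets tested, with the replicate block, with the interquartile range and with the clock score, and 2 with array weights, where Itih3 passed (0.40, limma adjusted p = 0.026). For pregnant micro ZnO it became 0 with all probe sets, array weights, a further quantile normalization, the compared groups alone, the replicate block, the clock score and without replicates 3 and 4. For virgin formulation 5 became 2 with the interquartile range. With the clock score, virgin micro ZnO and nano ZnO became 0, virgin sunscreens together 2 and pregnant sunscreens together 0. Leaving out 1 mouse at a time gave 5 to 6 members for virgin formulation, 4 to 6 for micro ZnO, 2 to 4 for nano ZnO and 5 to 6 for the sunscreens together. It gave 0 to 1 for nano ZnO minus formulation in virgin mice, for pregnant formulation and for pregnant micro ZnO, 0 to 2 for the pregnant sunscreens together and 0 elsewhere. Deviations of mice with the same replicate number had a median r of -0.127 over 36 virgin and 0.0241 over 31 pregnant pairs. Mice with different numbers had 0.0403 (virgin) and -0.00803 (pregnant). Such medians cannot exclude a pairing by number. With the replicate block, virgin counts were 5 for formulation, 4 for micro ZnO (Lbp and Fgl1 lost), 2 for nano ZnO (Itih4 lost) and 6 together, and pregnant sunscreens together kept 2. Counts within 1.5 times still hide lost calls, since Lbp and Fgl1 with micro ZnO in virgin mice were also lost with all probe sets and with an intensity trend, Fgl1 with a further quantile normalization, and Itih4 with nano ZnO with that normalization and with the compared groups alone. Beyond those named, the cause of a lost call was not tested. Each member had 1 probe set, so no second probe set could be tried. Cd14 and Il1rn were dim. Outside pregnant micro ZnO, Cd14 lay at the 30.29th to 44.1st percentiles of probe sets with a symbol and Il1rn at the 45.48th to 52.02nd.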
